A study of Mus musculus with 36 samples.

Results

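The 36 genes described here are immediate early genes of neurons, measured in whole forebrain and whole cerebellum from mutant and control mice of 3 lines. They were listed by name from what is known of these genes, but with earlier results of these data already known. All 36 had a probe set. The arrays held 18193 genes with at least 1 probe set of a single symbol, and 45101 probe sets in all. Where a gene had several probe sets, the one brightest on average over the 36 arrays stands for it, and the question asked is whether its level differed between -/- and +/+ mice in each line and tissue. The labels call the lines stg, tg and lh. They are read here as stargazer, tottering and lethargic, with changes in Cacng2, Cacna1a and Cacnb4, names that the labels do not spell out. These are inherited changes carried by all cells of the animal, and each array holds RNA of a whole brain region, so all its cell types are mixed. The 12 groups, stg-/-, stg+/+, tg-/-, tg+/+, lh-/- and lh+/+ in each tissue, had 3 arrays each, 36 in all, with no agent named beyond the killing of the animal and no age or strain background given in the sources used here.

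Immediate early genes are transcribed within minutes of synaptic activity and calcium entry, with no need for new protein, when kinases activate factors such as CREB and SRF that already sit on their promoters. Their products are transcription factors (Fos, Jun, Egr, Nr4a and Npas4), phosphatases that switch MAP kinases off again (the Dusp genes), and proteins that act at the synapse or on growth and stress signalling (Arc, Nptx2, Plk2, the Gadd45 genes). Voltage-gated calcium channels are among the routes by which calcium starts this response, and levels of these transcripts are widely used as a trace of recent neuronal activity.

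Signals are the deposited linear intensities, and changes are differences of log2(signal + 2.98), -/- minus +/+. Every array had been scaled to a 2% trimmed mean of 150, so a level is relative to the rest of its array. The labels were checked first. Cacng2 read 1.59 to 6.93 on the 6 stg-/- arrays and 202 or more on all others, and Cacnb4 in forebrain read 591 to 656 in lh-/- against 1220 to 1460 in lh+/+. Cacna1a, whose change in tottering alters the protein and need not alter the level, did not separate tg-/- from tg+/+ in either tissue. Gabra6, a marker of cerebellar granule cells, read 5220 to 9170 on cerebellum arrays and at most 178 on forebrain arrays. Neurod6, a marker of forebrain neurons, read 159 to 583 on forebrain arrays and at most 61.4 on cerebellum arrays. On 3 forebrain arrays, stg+/+ replicates 1 and 2 and lh+/+ replicate 3, the pituitary hormone Prl read above 1000, and the stg and lh forebrain values and the tissue counts are given without them too. The records also fall into 2 runs, of 20 and 16 arrays, each with both genotypes of every line and tissue.

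Promoter sequence helps to see which signals could reach each gene, and 27 of the 36 members had a window of the 250 bases before the transcript start in RefSeq's table for the mouse assembly GRCm38.p6. None was listed for Arc, Dusp4, Egr1, Egr3, Ier2, Klf10, Nptx2, Sik1 and Trib1. The 6 windows below are those of Jun, Dusp5 and Gadd45g, which passed the test in cerebellum, and of Dusp1, Nr4a1 and Nr4a2, which did not pass but whose arrays did not overlap between genotypes in at least 1 line. Other members with a window met this too, among them Fos, Nr4a3, Dusp6, Ier3 and Gadd45b, so those shown are a choice. Capitals mark matches on either strand to the CREB site TGACGTCA, its shorter form TGACG (written CGTCA on the other strand, and contained in the full site), the AP-1 site TGANTCA, the EGR site GCGNGGGCG, the CArG box that SRF binds, and the TATA box TATAAA.
Dusp5, chr19:53528895-53529144, plus strand: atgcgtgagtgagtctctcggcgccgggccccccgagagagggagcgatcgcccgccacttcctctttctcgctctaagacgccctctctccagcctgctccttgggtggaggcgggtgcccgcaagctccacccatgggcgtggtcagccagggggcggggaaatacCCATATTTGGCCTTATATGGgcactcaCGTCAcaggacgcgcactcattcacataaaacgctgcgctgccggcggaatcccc
Dusp1, chr17:26508473-26508722, minus strand: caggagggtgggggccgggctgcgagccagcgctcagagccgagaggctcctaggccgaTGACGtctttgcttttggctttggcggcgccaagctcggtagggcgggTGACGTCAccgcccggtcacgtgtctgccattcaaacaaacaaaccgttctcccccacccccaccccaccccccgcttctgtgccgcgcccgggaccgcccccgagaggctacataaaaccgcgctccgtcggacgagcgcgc
Nr4a1, chr15:101266596-101266845, plus strand: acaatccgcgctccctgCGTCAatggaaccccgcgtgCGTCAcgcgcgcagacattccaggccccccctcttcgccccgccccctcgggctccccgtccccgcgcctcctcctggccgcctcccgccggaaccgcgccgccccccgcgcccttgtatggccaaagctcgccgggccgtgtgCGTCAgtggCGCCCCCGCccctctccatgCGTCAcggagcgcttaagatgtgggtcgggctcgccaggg
Nr4a2, chr2:57124004-57124253, minus strand: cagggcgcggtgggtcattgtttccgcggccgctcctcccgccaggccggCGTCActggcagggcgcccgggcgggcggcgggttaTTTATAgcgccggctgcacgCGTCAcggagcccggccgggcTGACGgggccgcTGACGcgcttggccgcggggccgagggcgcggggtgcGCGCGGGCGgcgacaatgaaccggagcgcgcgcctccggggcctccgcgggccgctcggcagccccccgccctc
Jun, chr4:95052223-95052472, minus strand: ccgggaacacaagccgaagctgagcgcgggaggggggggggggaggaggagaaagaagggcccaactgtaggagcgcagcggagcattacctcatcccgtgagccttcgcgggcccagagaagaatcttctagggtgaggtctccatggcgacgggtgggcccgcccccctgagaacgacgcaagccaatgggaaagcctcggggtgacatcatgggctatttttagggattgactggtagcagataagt
Gadd45g, chr13:51846425-51846674, plus strand: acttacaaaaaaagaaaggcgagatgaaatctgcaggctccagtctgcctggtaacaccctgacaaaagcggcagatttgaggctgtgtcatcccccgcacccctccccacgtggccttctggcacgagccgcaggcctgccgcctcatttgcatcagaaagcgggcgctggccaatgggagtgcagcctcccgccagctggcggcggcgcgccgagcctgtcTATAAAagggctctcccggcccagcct

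Counted backwards from the transcript start, Dusp5 held adjacent CArG boxes starting at -82 and -72, and Dusp1 a full CREB site starting at -143. Nr4a1 and Nr4a2 each held 4 copies of TGACG or its other strand and an EGR site. Gadd45g held a TATA box at -27 and none of the others, and the Jun window held none of the motifs searched. Of the windows not shown, those of Dusp6 and Ier3 also held none, that of Gadd45b held no TGACG, and those of Fos and Nr4a3 held TGACG. Over the 27 members with a window, 18 held TGACG, against 19.8% of all 27025 genes in the table. The EGR site was in 10 members (5.33% of all genes), the full CREB site in 4, Dusp1, Btg2, Maff and Plk2 (1.77%), the TATA box in 4, Fos, Nr4a2, Gadd45b and Gadd45g (14.3%), the CArG box in Egr2 and Dusp5 (1.62%), and the AP-1 site in 0 (7.82%). These are matches of letters and not measured binding.

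After a filter that kept 27022 probe sets in each fit, 29 members could be tested in cerebellum and 33 in forebrain. Atf3 and Maff were below the filter in both tissues, Fosb, Egr2, Egr3, Ptgs2 and Nptx2 in cerebellum, and Dusp5 in forebrain. A member is said to have risen or fallen where limma's moderated test gave an adjusted p of 0.05 or less (Benjamini-Hochberg over all 27022 probe sets). In stg cerebellum 3 members passed, where 1.30% of all probe sets passed, and Gadd45g rose while Jun and Dusp5 fell. In tg cerebellum only Ier2 passed among those tested, a fall, where 0.574% of all probe sets passed. In lh cerebellum 0 of 29 passed (background 0.155%), and 0 of 33 passed in stg (0.0111%), tg (0.189%) and lh forebrain (0.0148%). At an unadjusted p under 0.05 the counts were 6 members in stg, 12 in tg and 1 in lh cerebellum, against 10.7%, 7.28% and 7.62% of all probe sets. In forebrain they were 0, 13 and 2 members, against 2.55%, 5.68% and 3.87%.

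Although few members passed singly, many lay on the same side of 0 in some groups. Members also moved together on single arrays, as given below, so these counts are a description and not separate results added up. In tg forebrain 31 of the 33 tested were below 0, with a median change of -0.38 where the median of all probe sets was 0.0032. In stg cerebellum 21 of 29 were below 0 (median -0.29, all probe sets 0.013), and in tg cerebellum 18 of 29 (median -0.20). The other groups were near an even split, with 15 of 29 in lh cerebellum (median -0.03), 18 of 33 in stg forebrain (median -0.01) and 19 of 33 in lh forebrain (median -0.04). Over all probe sets tested, 47.7% were below 0 in stg cerebellum, 51.6% in tg cerebellum and 49.4% in tg forebrain. With no filter, all 36 members entered, and 26 were below 0 in stg cerebellum, 20 in tg cerebellum and 33 in tg forebrain. In bulk tissue, fewer cells of a type and less RNA per cell cannot be told apart, here or in any result that follows.

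**Figure D1:**
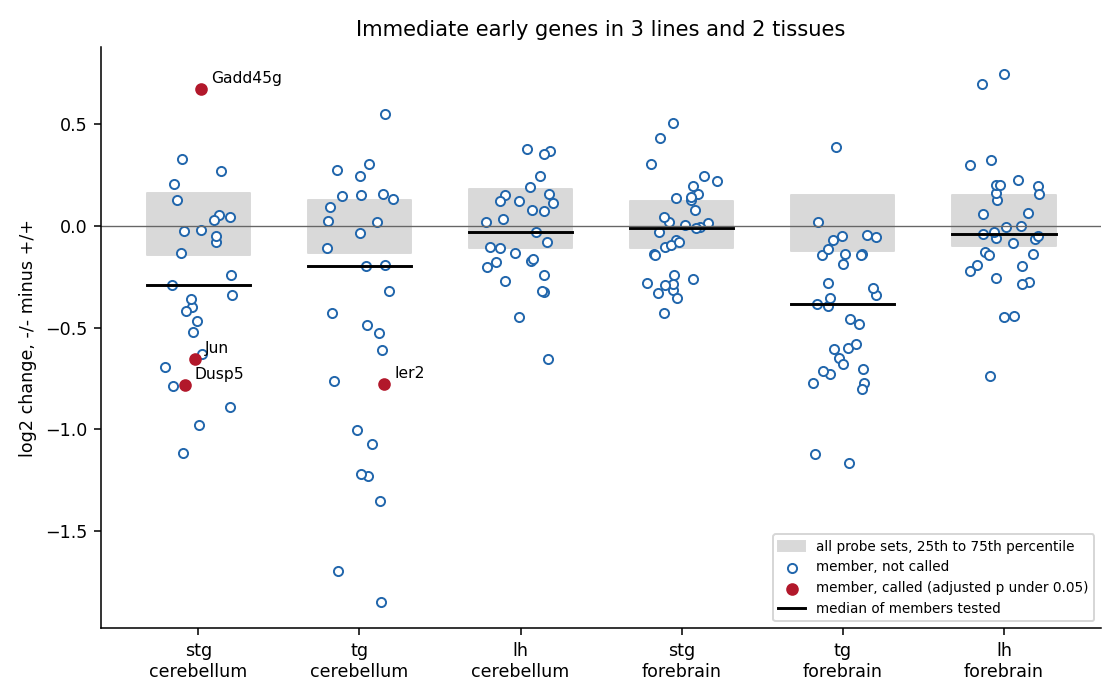
Log2 change, -/- minus +/+, of each member tested (circles) in the 3 lines, cerebellum on the left and forebrain on the right; filled circles passed the adjusted p of 0.05, black lines are medians of the members, and grey boxes span the 25th to 75th percentile of all probe sets. The median of the members is lowest in tg forebrain, at -0.38, where 31 of 33 circles lie below 0.

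The Fos, Jun, ATF and Maf families pair up to form the AP-1 factors, which carry the early response on to later genes. Of the 6 members of this group tested in cerebellum, 1 fell and 5 did not pass in stg, and 0 passed in tg and in lh. In stg cerebellum Jun read 369, 287 and 269 in the -/- replicates and 520.5, 470.1 and 457.5 in the +/+ replicates. All 3 stg-/- arrays were below all 3 stg+/+ arrays. Jun fell by 0.65 on the log2 scale (SE 0.14, adjusted p = 0.024 in limma), and its other probe set was at -0.62 (adjusted p = 0.063). In tg cerebellum Jun read 487, 552.5 and 546 against 439, 494 and 488.5 (0.16, adjusted p above 0.05), and in lh it read 349, 543 and 408 against 432, 528 and 448 (-0.13), so both of these pairs of groups overlapped. Within the runs of records, the stg difference of Jun was -0.60 in the run with 2 arrays of each genotype and -0.76 in the other, with 1 of each. Its adjusted p was 0.0998 without stg-/- replicate 2, 0.136 without stg-/- replicate 3, and 0.124, 0.0604 and 0.0544 without stg+/+ replicates 1, 2 and 3.

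Fos, the most used marker of recent activity, read 728, 551 and 1101 in tg-/- cerebellum and 1197, 2055 and 2276 in tg+/+. The groups did not overlap, but the difference of -1.22 (SE 0.36) did not pass (adjusted p = 0.21). In stg cerebellum Fos was at -0.63 and in lh at -0.11, with overlapping arrays in both. Fosl2, another Fos protein, was at -0.70, -1.004 and 0.19 in stg, tg and lh, and its second probe set at 0.80, -0.12 and -0.09. Junb, which tempers Jun, was at -0.29, -0.03 and 0.38, and Jund, the most constant Jun protein, at -0.36, 0.24 and -0.20. Nfil3, a repressor of the same structural class tied to the clock, was at -0.05, -0.61 and -0.24. The remaining bZIP members stayed near the floor of the arrays in cerebellum, with +/+ medians of 13.1 for Fosb, 25.9 for the stress factor Atf3 and 2.72 for Maff.

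The dual-specificity phosphatases remove phosphate from MAP kinases, and so form the brake that the response puts on itself. In stg cerebellum all 4 lay below 0, at a median of -0.78, and 1 of the 4 fell. Dusp5, which acts on ERK in the nucleus, read 319.9, 229 and 309 in stg-/- and 440.3, 466 and 569.5 in stg+/+. The groups did not overlap, and Dusp5 fell by 0.78 (SE 0.17, adjusted p = 0.025). The difference was -0.74 in the run with 2 arrays of each genotype and -0.88 in the other. Dusp1, which acts on several MAP kinases, read 968.5, 563 and 909.8 against 1585, 1069 and 1508, again with no overlap, but its -0.79 (SE 0.23) did not pass (adjusted p = 0.12). Dusp6, which holds ERK in the cytoplasm, was at -0.52 and Dusp4 at -0.89, both without passing. Same-numbered stg arrays deviated together (correlations 0.156, 0.188 and 0.380), and a fit with a replicate block was also made. The pairing was read from these same values and not from the labels, so calls added by the block are not separate support. Correlations of unlike-numbered arrays are not given for comparison. That block was fitted in every line at once with a shared spread, and tg and lh numbers pair only in part. With it, 6 members passed in stg cerebellum, 3.77% of all probe sets passing, and Dusp1 (adjusted p = 0.015), Dusp4 (0.0475) and Jund (0.025) were added. These added calls thus rest in part on the tg and lh blocks. Dusp5 missed the threshold without stg-/- replicate 2 (adjusted p = 0.131), stg+/+ replicate 2 (0.0553) or stg+/+ replicate 3 (0.135).

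In tg cerebellum the 4 phosphatases were also all below 0, at a median of -0.51, and 0 passed. Dusp5 read 374, 415 and 506 in tg-/- and 514, 637 and 720.3 in tg+/+. These arrays did not overlap, at -0.52 (adjusted p = 0.31). Dusp4 was at -1.23, Dusp6 at -0.49 and Dusp1 at -0.43. In lh cerebellum Dusp5 read 631.5, 544 and 591 against 710.0, 509 and 805.5. The lh groups overlapped, at -0.17, and the other phosphatases ran from -0.27 for Dusp1 to 0.02 for Dusp4.

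Ier2, a nuclear early response protein, fell in tg cerebellum. It read 189.8, 182 and 177 in tg-/- and 256, 390.2 and 316 in tg+/+. The 3 tg-/- arrays lay close together and below all tg+/+ arrays, at -0.78 (SE 0.17, adjusted p = 0.036). In stg the values were 224, 152 and 192 against 297.5, 259 and 206, which overlapped, at -0.42 (adjusted p = 0.33). In lh they were 237, 200.4 and 256 against 272, 272 and 239.5, which also overlapped, at -0.18. Within runs the tg difference was -0.95 where each genotype had 2 arrays and -0.43 where it had 1. Its adjusted p was 0.0776, 0.135 and 0.151 without tg-/- replicates 1, 2 and 3, and 0.240 and 0.123 without tg+/+ replicates 2 and 3.

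Gadd45g, a growth arrest protein that also takes part in removing DNA methylation, was the member that rose. In stg cerebellum it read 318, 282 and 357 in -/- and 224, 199 and 174 in +/+. Every stg-/- array was above every stg+/+ array, and Gadd45g rose by 0.67 (SE 0.13, adjusted p = 0.0089). The values in tg were 264, 238 and 289 against 202, 229 and 208, which did not overlap, at 0.30 without passing. In lh they were 223.5, 256 and 226 against 251, 195 and 208, which overlapped, at 0.11. Within the runs of stg the difference was 0.50 with 2 arrays of each genotype and 1.02 with 1 of each. Its adjusted p was 0.0657 without stg-/- replicate 3 and 0.0626 without stg+/+ replicate 3. Of the other members of this group, Gadd45b, its relative, was at -0.08, 0.02 and -0.32 in stg, tg and lh. A second Gadd45b probe set was at -0.42, -0.03 and -0.05. The antiproliferative Btg2 was at 0.04, 0.15 and 0.12, and Ier5 at -0.03, 0.15 and 0.15.

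**Figure D2:**
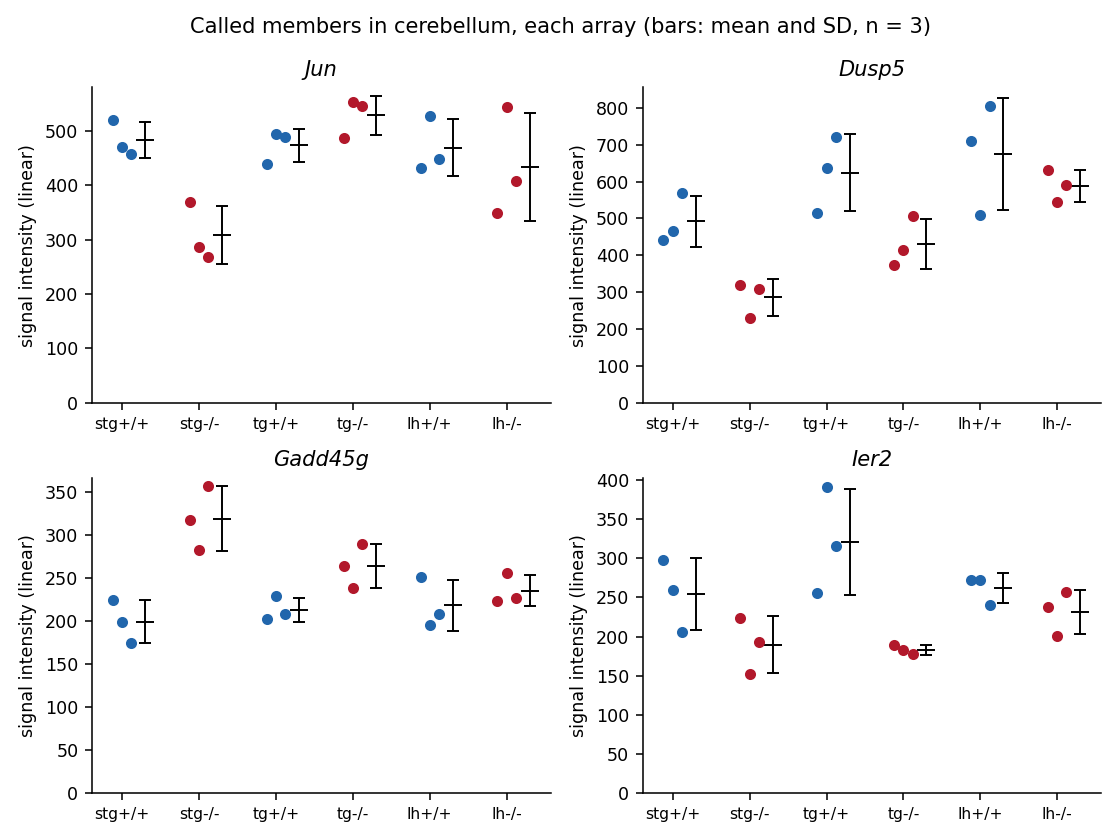
Linear signal on each cerebellum array (points; blue +/+, red -/-) of Jun, Dusp5, Gadd45g and Ier2, with mean and SD of 3 arrays beside each group and axes from 0. The stg-/- arrays of Jun sit at 269 to 369, below the stg+/+ arrays at 457.5 to 520.5, and the tg-/- arrays of Ier2 sit at 177 to 189.8.

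The Nr4a genes encode orphan nuclear receptors that need no ligand, so that their amount sets their activity. In tg cerebellum all 3 were lower in every -/- array, and 0 passed. Nr4a2 read 148, 189 and 335 in tg-/- and 519.6, 773 and 824 in tg+/+. The difference was -1.70 (SE 0.41) with an adjusted p of 0.073. Further Nr4a2 probe sets above the filter were at -1.07, -1.13 and -1.06. Nr4a3 read 111, 60.7 and 105 against 299, 241 and 491, a difference of -1.85 (SE 0.50, adjusted p = 0.14). Nr4a1 read 201, 120.1 and 234 against 365, 524 and 507, a difference of -1.35 (SE 0.37, adjusted p = 0.15). Within the runs the tg differences were -1.65 and -1.79 for Nr4a2, -2.07 and -1.40 for Nr4a3, and -1.60 and -0.85 for Nr4a1, the first of each from 2 arrays of each genotype. With a block for line and run, Nr4a2 and Nr4a3 passed (adjusted p = 0.0093 and 0.028), and with array weights all 3 did (adjusted p = 0.014 for Nr4a2, 0.026 for Nr4a3 and 0.027 for Nr4a1).

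The same receptors varied widely among the stg arrays. Nr4a2 read 382.5, 155 and 432 in stg-/- and 375, 192 and 726 in stg+/+, which overlapped. The stg differences were -0.47 for Nr4a1, -0.34 for Nr4a2 and -0.24 for Nr4a3, and those of lh were 0.08, 0.03 and 0.24. Npas4, a factor induced by calcium entry and few other signals, was at -1.12, -1.07 and -0.66 in stg, tg and lh cerebellum with none passing. It was close to the floor there, at 1.84 to 79.9 over all 18 arrays, so that its difference rests on weak signals.

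**Figure D3:**
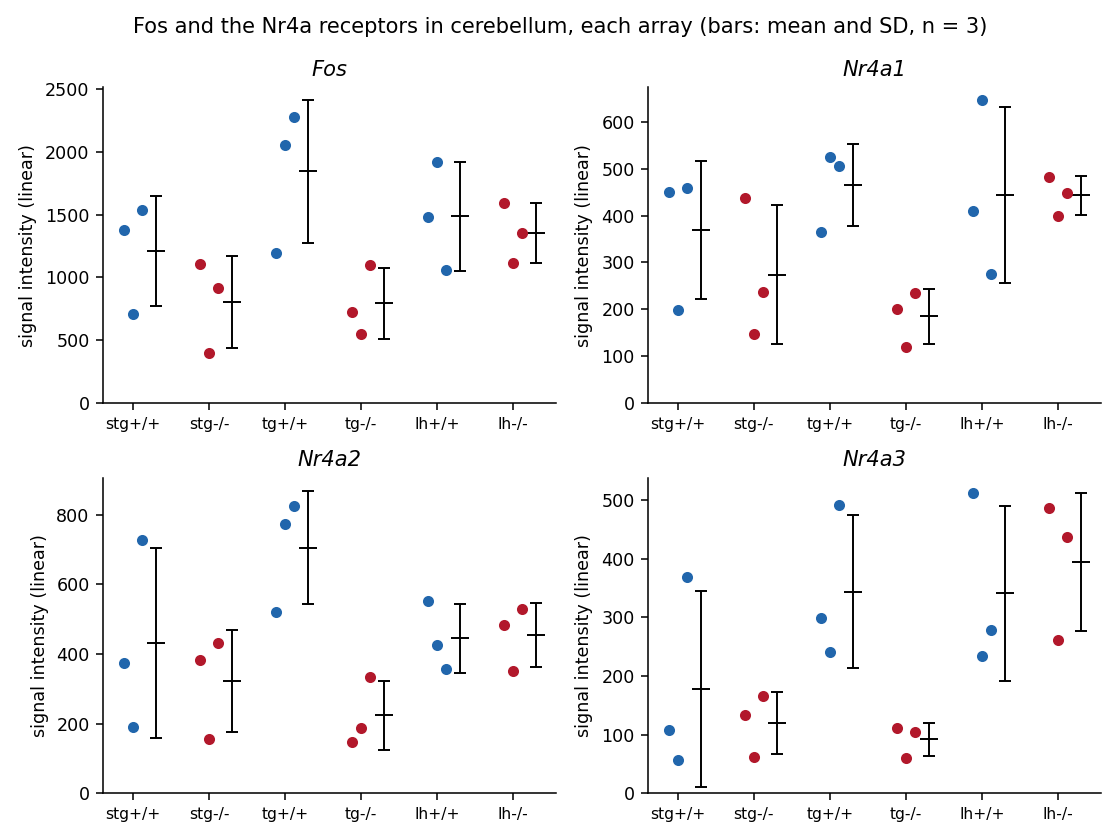
Linear signal on each cerebellum array (points; blue +/+, red -/-) of Fos, Nr4a1, Nr4a2 and Nr4a3, with mean and SD of 3 arrays beside each group and axes from 0. In the tg line the -/- arrays of all 4 genes lie below the +/+ arrays, for Nr4a2 at 148 to 335 against 519.6 to 824, whereas the stg and lh groups overlap.

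Zinc finger factors of the Egr and Klf families bind GC-rich promoters, and 0 of the 4 tested in cerebellum passed in any line. Egr1, which is used as a marker of plasticity, was at 0.27, -0.32 and -0.32 in stg, tg and lh. In lh it read 416, 566 and 478 in -/- and 482, 823 and 560.0 in +/+, which overlapped (adjusted p = 0.74). Egr4 was at -0.40, -0.11 and 0.15, Klf10 at 0.12, 0.02 and -0.16, and Klf4 at -0.13, -0.76 and 0.37. For Egr2 and Egr3 the +/+ medians in cerebellum were 8.10 and 12.9, too low for a test.

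In lh cerebellum the member with the smallest p was Ier3, a survival factor of the early response. It read 181, 150.0 and 158 in lh-/- and 263.5, 214 and 197 in lh+/+. The groups did not overlap, at -0.45 (SE 0.15, adjusted p = 0.36), and Ier3 was at 0.05 in stg and -0.20 in tg. Gadd45b read 102, 105 and 86.3 against 117, 147 and 107 in lh, with lh-/- lower on every array, at -0.32 (adjusted p = 0.74). Its second probe set did not show this, at -0.05 in lh (adjusted p = 0.98 in limma). Rgs2, which shortens G protein signalling, read 335, 332 and 389 against 306, 225 and 299, with lh-/- higher on every array, at 0.35 (adjusted p = 0.77). It was at -0.02 in stg and 0.09 in tg.

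None of the kinases and effectors tested in cerebellum passed in any line. Plk2, a kinase that scales synapses down, was at 0.03, 0.27 and 0.12 in stg, tg and lh, the salt-inducible kinase Sik1 at 0.33, -0.19 and -0.11, and the pseudokinase Trib1 at 0.20, 0.55 and 0.07. Arc, which removes AMPA receptors from synapses, was at -0.98, 0.13 and -0.08 there. It lay near the floor in cerebellum, with stg-/- arrays at 1.85, 7.16 and 58.0 and stg+/+ arrays at 37.2, 7.46 and 51.8. The stg groups of Arc overlapped, and the run with 2 arrays of each genotype gave -1.55 and the other 0.16. Ptgs2, which makes prostaglandins, had a +/+ median of 8.68 in cerebellum, and Nptx2, a secreted protein that gathers AMPA receptors, one of 1.29.

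Some members had 3 -/- arrays that did not overlap the 3 +/+ arrays in cerebellum. They were 12 lower and 3 higher of 29 in tg, where 6.81% of all probe sets were lower and 7.23% higher without overlap. They were 4 lower and 2 higher in stg (7.48% and 8.13%) and 3 lower and 2 higher in lh (5.47% and 7.21%). The 4 in stg were Jun, Dusp1, Dusp5 and Dusp6.

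Averaged over the 3 lines, 3 members differed in cerebellum, where 1.97% of all probe sets did. Dusp5 fell by 0.49 (SE 0.10, adjusted p = 0.011), Ier2 fell by 0.46 (SE 0.10, adjusted p = 0.015) and Gadd45g rose by 0.36 (SE 0.08, adjusted p = 0.015). Each of the 3 genes passed in all 26 alternative settings that could be computed for it. Dusp1 followed at -0.50 (adjusted p = 0.059) and Fos at -0.65 (adjusted p = 0.13).

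Whether the effect differed between lines was tested directly, and 0 of 29 members passed in cerebellum (background 0.315%), with Jun the closest (adjusted p = 0.22). Set against the mean of the tg and lh effects, the stg effect of Jun lay at -0.67 (SE 0.18, adjusted p = 0.14), and 0 members passed (background 0.278%). At an unadjusted p under 0.05 the counts were 6 and 3 of 29. The backgrounds beside these tests are for the adjusted p, and no share of all probe sets was computed at the unadjusted p. The +/+ groups of the lines did not differ in any of the 29 members by this test (0 called, background 0.881%), with Nfil3 closest (adjusted p = 0.18). Here 2 members had an unadjusted p under 0.05, again with no share of all probe sets computed. Without stg+/+ replicate 3, 1 member passed.

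In tg forebrain the members lay low as a group while none passed singly. They also moved together from array to array, so counts of members are not counts of separate results. On tg-/- replicate 3, 27 of 33 were above their group means, and on tg+/+ replicate 1, 25 of 33 were below. Of the 33 tested, 13 had an unadjusted p under 0.05 and all 13 were lower, and 9 were lower and 0 higher with no overlap, where 5.06% and 4.64% of all probe sets were. Arc read 311, 283 and 350.5 in tg-/- and 493, 876 and 820.4 in tg+/+. The tg-/- arrays lay well below, at -1.17 (SE 0.25, adjusted p = 0.073). Dusp6 read 386, 370.4 and 403 against 530.4, 648 and 653, a narrow group below a higher one, at -0.65 (SE 0.15, adjusted p = 0.11). Ier2 read 97.4, 112 and 125 against 153, 205 and 225, with no overlap, at -0.77 (SE 0.18, adjusted p = 0.12). Egr1 read 1730.0, 1424 and 2045 against 2275, 2898 and 2710.0, with no overlap, at -0.61 (SE 0.16, adjusted p = 0.22).

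Members of every role lay below 0 in tg forebrain. The 7 bZIP members tested were all below 0, at a median of -0.58, with Fos at -0.73, Junb at -0.58, Fosl2 at -0.60, Nfil3 at -0.71, Fosb at -0.36, Jun at -0.31 and Jund at -0.19. The 6 zinc finger factors were all below 0, at a median of -0.50, with Egr2 at -1.12, Klf10 at -0.77, Egr4 at -0.39, Egr3 at -0.15 and Klf4 at -0.05. The nuclear receptors and Npas4 were all below 0, with Nr4a3 at -0.80, Nr4a1 at -0.70, Npas4 at -0.38 and Nr4a2 at -0.11. So were the phosphatases tested, with Dusp1 at -0.48 and Dusp4 at -0.07, and the 6 growth arrest and early response proteins, with Ier5 at -0.46, Gadd45b at -0.34, Gadd45g and Ier3 at -0.14 and Btg2 at -0.04. Nptx2 was at -0.68, Trib1 at -0.28, Plk2 at -0.14 and Rgs2 at -0.06. The members above 0 were Sik1 at 0.39 and Ptgs2 at 0.02.

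Leaving out each of the 6 arrays in turn left 26 to 31 members below 0 in tg forebrain. Without tg+/+ replicate 1, the lowest array of its group for 21 of 33 members, Arc fell by 1.43 (adjusted p = 0.028). That array was also the lowest of its group for Arc, so leaving it out enlarges the fall by construction. In the other 14 of 15 alternative settings Arc did not pass. With a block for line and run, Dusp6 passed (adjusted p = 0.023). Within the run with 2 arrays of each genotype the differences were -1.42 for Arc, -0.75 for Dusp6, -0.84 for Ier2 and -0.71 for Egr1. In the other run, with 1 of each, they were -0.66, -0.45, -0.63 and -0.39.

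**Figure D4:**
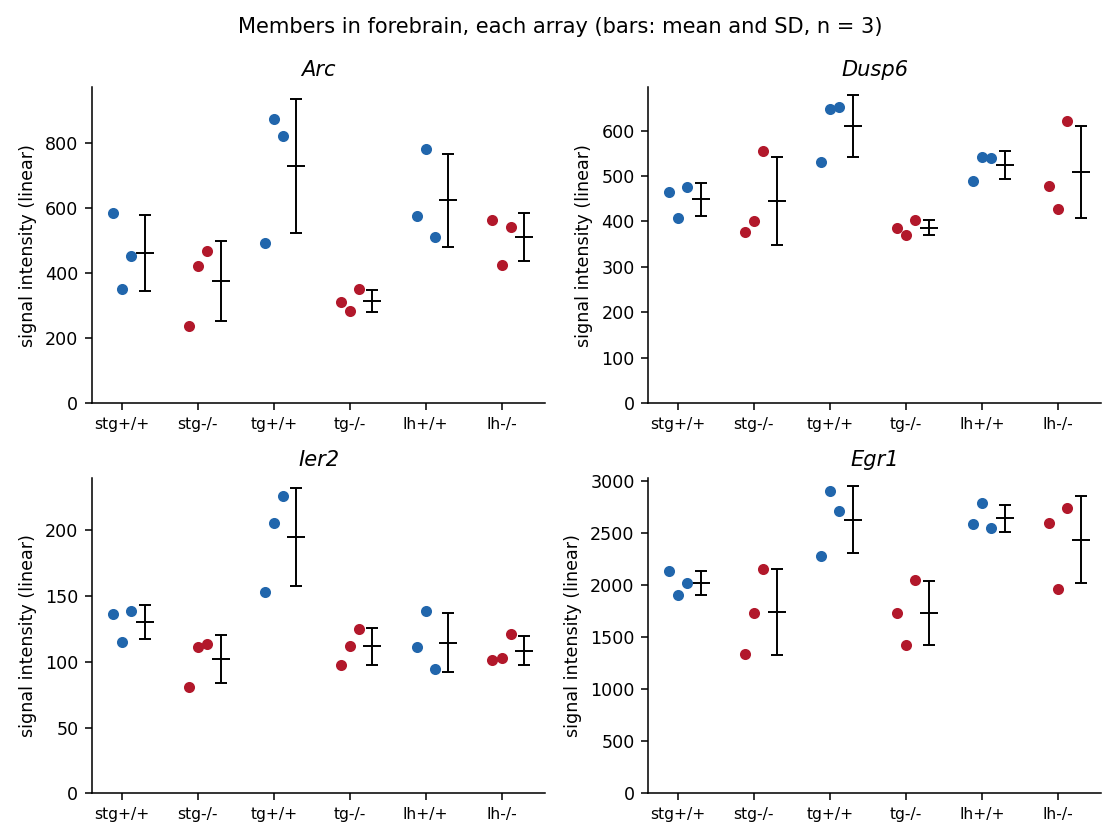
Linear signal on each forebrain array (points; blue +/+, red -/-) of Arc, Dusp6, Ier2 and Egr1, with mean and SD of 3 arrays beside each group and axes from 0. In the tg line the -/- arrays lie below the +/+ arrays for all 4 genes, for Arc at 283 to 350.5 against 493 to 876.

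In stg forebrain 0 members passed, 0 had an unadjusted p under 0.05, and the adjusted p of every member was 1. Ier2 read 80.6, 111 and 113 in stg-/- and 136, 115 and 138 in stg+/+, lower on every -/- array by a small margin, at -0.35. Klf10 read 169, 155 and 257 against 137, 108 and 181, which overlapped, at 0.43. Egr1 read 1334, 1734 and 2152 against 2138, 1907 and 2018, which overlapped, at -0.24. Ptgs2 read 73.2, 82.8 and 139.7 against 57.4, 45.1 and 109.6, which overlapped, at 0.50. Without the arrays with pituitary signal, Ier2 was at -0.45, Klf10 at 0.06, Egr1 at -0.24 and Ptgs2 at -0.20, and 25 members were below 0. Without overlap, 2 members were lower and 0 higher (3.87% and 3.59% of all probe sets). Actb's 3' to 5' signal difference, a sign of RNA quality, did not overlap between stg-/- and stg+/+ forebrain, where -/- minus +/+ was -0.19. That of Gapdh did overlap, at -0.471 to -0.357 in stg-/- and -0.467 to -0.250 in stg+/+. The 6 pituitary markers together read 90.8 to 270.0 in stg-/- and 241.6 to 5607 in stg+/+ forebrain. Their part in these values was not tested.

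In lh forebrain 0 members passed, and Jund and Dusp4 had an unadjusted p under 0.05. Jund read 613, 729.9 and 532 in lh-/- and 1041, 986 and 584 in lh+/+, which overlapped, at -0.44 (SE 0.17, adjusted p = 0.9997). Dusp4 read 104.5, 71.8 and 137 against 78.7, 45.5 and 63.7, which overlapped, at 0.70 (SE 0.30). Nptx2 read 129.9, 423 and 90.6 against 118, 103 and 84.8, so that its 0.75 came from the array at 423. Nfil3 read 104, 46.5 and 70.5 against 103, 92 and 94.7, at -0.45, and Trib1 was at -0.74 with a SE of 0.61. Without lh+/+ replicate 3 and the other arrays with pituitary signal, Jund was at -0.71 (adjusted p = 0.39), Dusp4 at 0.72, Nptx2 at 0.62 and Nfil3 at -0.46, with 0 members passing and 21 below 0. Actb's 3' to 5' difference did not overlap here either, at 0.835 to 0.875 in lh-/- and 0.8825 to 0.911 in lh+/+, and its part was not tested. That of Gapdh did overlap, at -0.582 to -0.327 in lh-/- and -0.548 to -0.362 in lh+/+. Without overlap, 1 member, Egr3, was lower and 1, Plk2, higher, where 4.50% and 6.20% of all probe sets were.

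Over the 3 lines the mean effect in forebrain reached the threshold in 0 members (background 0.0148%), with Arc at -0.59 (adjusted p = 0.43), Ier2 at -0.40 and Egr1 at -0.33. Of the 33 members, 8 had an unadjusted p under 0.05, all lower. Backgrounds here are for the adjusted p, and no share of all probe sets was computed at the unadjusted p for these tests. The effect did not pass a test of difference among lines in any member (background 0.0259%), nor did stg against the mean of tg and lh (0.00740%), with 5 and 1 members at an unadjusted p under 0.05. Klf10 came closest in the first of these, at adjusted p = 0.815. Among the +/+ groups 0 members differed by line (background 0.414%), and 5 had an unadjusted p under 0.05, with Ier2 closest (adjusted p = 0.19).

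The effect was set against itself between the tissues, over all 36 arrays. In stg the effect on Jun in cerebellum minus that in forebrain was -0.90 (SE 0.26, adjusted p = 0.21), and 0 of 33 members passed (background 0.248%). In tg the effect on Nr4a2 differed by -1.58 and that on Ier5 by 0.61, with adjusted p of 0.91 for each, and 0 passed (0.0259%). In lh 0 passed (0.0111%), with Ier3 closest at -0.51. At an unadjusted p under 0.05 the counts were 4, 4 and 2 members, with no share of all probe sets computed at that p. So the low Arc, Dusp6 and Egr1 of tg forebrain and the low Nr4a genes of tg cerebellum were not shown to differ between the tissues.

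Arrays of the same group also differed in these genes together, in forebrain most. In stg-/- forebrain, replicate 1 was the lowest of its group for 27 of 33 members and replicate 3 the highest for 27 of 33. The median distance of the members from their group means was -0.31 on replicate 1 and 0.32 on replicate 3, where that of all probe sets was -0.0061 and 0.0127. Fos, for instance, read 508, 833 and 997 in stg-/- forebrain, and Nr4a1 read 372, 759.6 and 847. In tg-/- forebrain replicate 3 was highest for 24 of 33 members, and in lh+/+ forebrain replicate 3 was lowest for 18. In cerebellum the widest medians were -0.22 on stg-/- replicate 2 and 0.14 on stg+/+ replicate 3. Left without stg-/- replicate 1, stg forebrain had 10 members below 0 in place of 18. Left without lh+/+ replicate 2, lh forebrain had 12 in place of 19.

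Between the tissues of +/+ mice 24 of the 33 members tested differed, where 58.2% of all probe sets did. Of these 33, 5 were below the filter in 1 tissue and entered through the other, so they had to differ and are given as levels with no test. Of the 28 members above the filter in both tissues, 12 were lower and 7 higher in cerebellum and 9 did not pass, where 57.1% of such probe sets passed. Arc read 7.46 to 56.2 (median 35.1) over the 9 cerebellum arrays and 352 to 876 (median 576) over the 9 forebrain arrays, with no overlap, at -4.05 (SE 0.31, adjusted p = 8.25e-13). Its cerebellum signal was weak, so the size of this difference depends on the added constant. Plk2 (-2.20), Egr1 (-2.01), Junb (-1.99), Rgs2 (-1.91), Fosl2 (-1.62), Npas4 (-1.61), Dusp6 (-1.46), Ier5 (-1.40), Klf10 (-1.33), Nr4a1 (-1.09) and Egr4 (-0.94) were lower in cerebellum too.

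Nfil3 (1.20), Ier2 (0.95), Dusp1 (0.89), Ier3 (0.53), Fos (0.48), Gadd45g (0.30) and Jun (0.28) were higher in cerebellum. The members Nr4a2 (-0.10) and Nr4a3 (-0.28) did not pass between the tissues, nor did Jund, Klf4, Gadd45b, Sik1, Dusp4, Btg2 and Trib1. The 5 members below the filter in 1 tissue were Dusp5, low in forebrain, and Egr2, Egr3, Fosb and Ptgs2, low in cerebellum. Dusp5 read 440.3 to 805.5 (median 569.5) over the 9 +/+ cerebellum arrays and 7.67 to 78.2 (median 10.8) over the 9 forebrain arrays. Egr3 read 9.74 to 24.2 (median 12.9) in cerebellum and 617 to 1838 (median 1275) in forebrain. Neither gene overlapped between the tissues. The forebrain medians of Egr2, Ptgs2 and Fosb were 108, 87.1 and 40.6, against 8.10, 8.68 and 13.1 in cerebellum. Over the 9 arrays of each tissue, 15 of the 36 members were lower in cerebellum and 2, Dusp5 and Ier3, higher with no overlap of arrays. These counts include members below the filter in 1 tissue. The share of all probe sets without overlap was not computed, so the counts cannot be set against a background.

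Of the 19 differences, those of Fos and Jun depended on single arrays. Fos missed the threshold (adjusted p 0.0626 to 0.120) without any 1 of stg+/+ forebrain replicate 2, tg+/+ forebrain replicate 1, lh+/+ forebrain replicates 1 or 3, stg+/+ cerebellum replicates 1 or 3, tg+/+ cerebellum replicates 2 or 3, or lh+/+ cerebellum replicates 1 or 2. Jun did (adjusted p 0.0547 to 0.0822) without stg+/+ forebrain replicates 1 or 2, tg+/+ forebrain replicate 1, lh+/+ forebrain replicate 1 or lh+/+ cerebellum replicate 2. Without the 3 arrays with pituitary signal, 20 of the members tested passed in place of 24. Second probe sets differed from the brighter ones for Fosl2 (-0.07) and Jun (0.08, adjusted p = 0.47). For Egr3, given above as levels with no test, the second probe set was at -0.60 where the brighter one was at -6.14.

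**Figure D5:**
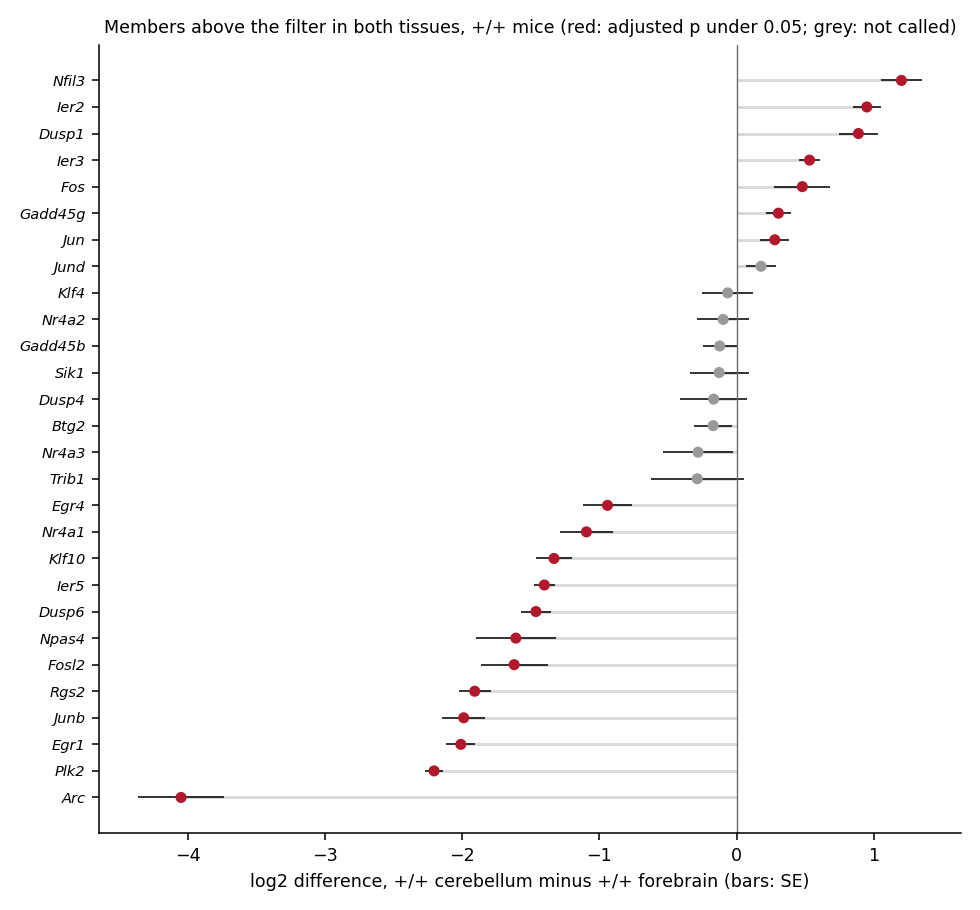
Log2 difference between +/+ cerebellum and +/+ forebrain of the 28 members above the filter in both tissues (points, with SE as bars), sorted; red points passed the adjusted p of 0.05 and grey points did not. Nfil3 stands at 1.20 at the top and Arc at -4.05 at the bottom.

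Genes before and after these in the pathway were read from lists of textbook genes. Of 17 upstream kinases and constitutive factors tested in stg cerebellum, Rps6ka5, a kinase that phosphorylates CREB and histones, rose (0.46), Camk4, the nuclear calmodulin-dependent kinase that activates CREB, fell (-0.76), and 15 did not pass. Camk4 also fell in lh cerebellum (-0.62), with 16 of the 17 not passing, and 0 of 17 passed in tg. Of 14 delayed activity-regulated genes in stg cerebellum, Bdnf, a neurotrophin that activity induces, fell by 2.44 (SE 0.35), Nrn1 fell by 0.58 and Scg2 fell by 0.60, and 11 did not pass. Tac1, a neuropeptide precursor in the same list, rose in tg (2.40) and lh (1.69) cerebellum, with 13 not passing in each. In forebrain 0 genes of either list passed in any line. Of 23 other immediate early genes tested in cerebellum 0 passed in each line, with medians of 0.08, 0.06 and 0.06 in stg, tg and lh, and in tg forebrain 15 of 24 were below 0 with a median of -0.12 and 0 passing.

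Markers of other cell types and of handling are given beside these results. In stg cerebellum Gabra6 of the granule cell list fell (-0.41, 1 of 8 markers), and Gfap of the astrocyte list rose (0.93, 1 of 6). Gabra6 was lower with no overlap in the other lines too. It read 6340 to 7200 in tg-/- against 7940 to 9170 in tg+/+, and 5770 to 6680 in lh-/- against 7730 to 8570 in lh+/+. All 8 granule cell markers together read 25140 to 26220 in stg-/- against 27480 to 31930 in stg+/+, and 25630 to 26390 in lh-/- against 30620 to 32660 in lh+/+, with no overlap in either line. In tg cerebellum these sums overlapped, at 29550 to 31590 in tg-/- against 30960 to 33000 in tg+/+. In stg the 5 Purkinje cell markers were all above 0 (median 0.33, 0 passing) and together read 30520 to 33890 against 23440 to 29150. The 6 astrocyte markers there were also all above 0 and read 18210 to 19180 against 14890 to 18010. The 7 choroid plexus markers were all above 0 in each cerebellum, with medians of 0.83, 0.68 and 1.11 in stg, tg and lh and 0 passing. Their summed signals were 12510 to 16820 against 3857 to 14110 in stg and 12450 to 14970 against 12040 to 13180 in tg. The 6 microglia markers tested were all above 0 in each cerebellum, with medians of 0.30, 0.47 and 0.32, and C1qc rose in tg. Sums over all 8 microglia markers, tested or not, did not overlap in any line. They were 1056 to 1237 against 908.6 to 1040.0 in stg, 1277 to 1573 against 945.8 to 1151 in tg and 1167 to 1201 against 909.5 to 952.5 in lh. Glucocorticoid response genes, which handling stress can raise, were summed over all 9 listed. They read 2722 to 3175 against 2355 to 2511 in stg cerebellum (5 of the 8 tested above 0, median 0.15). In tg cerebellum they read 2440 to 2981 against 2051 to 2298 (6 of the 8 tested above 0, median 0.25). Neither line overlapped, and 0 passed. In tg forebrain, 5 of 8 heat shock genes and 4 of 8 glucocorticoid response genes were below 0, at medians of -0.16 and -0.06. The 7 forebrain neuron markers together read 5683 to 7742 in tg-/- against 5817 to 7674 in tg+/+. Of these, Neurod6 read 390 to 482 in tg-/- and, with a wider spread, 159 to 494 in tg+/+, and the others are not given singly. All 6 endothelial markers together read lower with no overlap, at 940.6 to 1051 in tg-/- against 1082 to 1342 in tg+/+. Of the 5 tested, 4 were below 0, and the median of the 5 was -0.29. None of these 4 lists held a gene that passed there. The part of these lists in the members' values was not tested.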

How the data were processed

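The deposited table holds a linear intensity for each probe set on each 1-colour Affymetrix array. Software used by the authors was not given in the sources used here. Intensities were analysed as log2(signal + 2.98). The constant is their 10th percentile, and it shrinks changes near the floor. The 64 control probe sets were left out, and probe sets above the 40th percentile of the mean over a fit's arrays were kept. Array medians ran from 5.40 to 5.72, and no normalization between arrays was added. Gene symbols came from the platform's probe table: 34958 probe sets had 1 symbol, 932 several and 9211 none, and 34754 matched the GRCm38.p6 annotation by Entrez ID.

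The tests are two-sided moderated tests of limma (version 3.58.1, R 4.3.3), fitted to group means with an intensity trend, over the 18 arrays of a tissue or all 36 arrays for differences between tissues. The script was tested on simulated data. The labels do not clearly say that each array is a separate animal, so p-values measure the spread between these samples. Detection limits are unknown, and 3 arrays a group limit the precision. In forebrain, replicate numbers follow the order of the records and only name an array.

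The members, the gene lists and the tests were chosen with earlier results of these data known. All 36 members are named. Values per array are given for members that passed and, where fewer than 4 did, for those with the smallest p, up to 4; of other lists, genes that passed, at most 4. Values per array of Fos, of the stg groups of Nr4a2 and Arc, and of Fos and Nr4a1 in stg forebrain were added after their values were seen. Cerebellum arrays with the same title number correlated, in deviations from group means, at 0.156, 0.188 and 0.380 in stg, each above the limit of 0.1, at 0.293, 0.0404 and 0.244 in tg, and at 0.225, 0.0948 and 0.333 in lh. The pairing in stg thus comes from the data and not from the labels. Settings varied were the filter (none, or the 60th percentile), the added constant (1), normalization between arrays (quantile), the trend (none), array weights, blocks for run or replicate, the 6 arrays of a line alone, the second-brightest probe set, leaving out arrays with pituitary signal and leaving out each array.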

Additional observations from a re-analysis of the deposited data

How the results depend on the processing

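Counts of members that passed moved with the treatment of the spread. Percentages here are the share of all probe sets passing in the same fit, given for the reported fit, array weights and blocks. Counts from the other settings have no such share beside them, so they cannot be set against a background. These shares rose too with array weights and with each block. In stg cerebellum (3 in the reported fit, 1.30%) 1 passed with no intensity trend and 1 on the 6 arrays of the line alone. The replicate block gave 6 (3.77%), and 0 to 3 passed with 1 array left out, 0 without stg+/+ replicate 3. In tg cerebellum (1, 0.574%) the counts were 0 with no trend, 5 with array weights (1.44%) and 3 with the run block (1.06%). They were 4 on the line's 6 arrays and 0 to 1 with 1 array left out. The replicate block gave 7 there (1.59%), but tg and lh numbers do not pair all arrays, so this says nothing of the size of an effect. The stg count with the replicate block comes from the same fit and its shared spread. For the mean effect in cerebellum (3, 1.97%) the run block gave 5 (3.66%) and the replicate block 11 (4.58%). For the difference among lines in cerebellum (0, 0.315%) the run block gave 1 (0.762%) and the replicate block 4 (1.78%). For stg against the mean of tg and lh (0, 0.278%) the replicate block gave 1 (2.1%). For the +/+ groups in cerebellum (0, 0.881%) the replicate block gave 4 (3.21%), with 0 to 1 when 1 array was left out. In tg forebrain (0, 0.189%) the run block gave 1 (0.285%), and 0 to 1 passed with 1 array left out. By second-brightest probe sets the counts were 0 in stg and tg cerebellum and 0 for the mean effect. Only 8 members had one that was tested in cerebellum, and Dusp5, Ier2 and Gadd45g have none, so for these genes the setting could give no call. Between the tissues 3 of the 10 second probe sets tested passed, against 24 of 33 members.

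Members below 0, an alternative chosen after seeing the data, numbered 11 of the 19 tested in tg cerebellum with the filter at the 60th percentile (18 of 29 in the reported fit), 10 to 23 in stg forebrain (18) and 12 to 21 in lh forebrain (19) with 1 array left out. Ptgs2 in stg forebrain changed sign, to -0.205, without the arrays with pituitary signal (adjusted p = 1). Where fewer members entered, the counts are lower by construction, and otherwise the cause was not tested. No replicate block was fitted in forebrain, where replicate numbers were given in the order of the records. Members near the floor (Arc, Npas4, Egr2 and Egr3 in cerebellum, Dusp5 in forebrain) have differences that depend on the added constant.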
